A study of Mus musculus with 12 samples.

Results

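Genes that rose or fell for a single stage were sought in fetal testes of the mouse chromosome substitution strain 129.MOLF-Chr 19, called M19. The 2 M19 arrays of E15.5, where E stands for the embryonic day, were set against the mean of the 2 arrays of E13.5 and the 2 arrays of E17.5, so the description rests on 6 of the 12 arrays of the study. The other 6 arrays hold the same stages of the strain 129/Sv, called 129, with 2 arrays each, and serve as the control strain. Every array measured total RNA from male genital ridges or testes of untreated embryos on the Affymetrix mouse 430_2 array. In M19 the chromosome 19 pair comes from MOLF mice and the rest of the genome from 129, and testicular tumours of germ cell origin are frequent in its males. Per the labels, testes of 40 pairs went into the pool behind 2 arrays. If a group's arrays share 1 pool, p-values measure only technical spread.

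In the fetal testis of the mouse, primordial germ cells become enclosed in cords by Sertoli cells, stop dividing and turn into prospermatogonia. Over the same days the cells shut down genes of pluripotency and take on male fate. They then start the piRNA pathway, in which small RNAs bound to PIWI proteins direct DNA methylation to transposons. Nodal signalling through the co-receptor Tdgf1 is known to be active in the germ cells for a short time. Outside the cords, fetal Leydig cells make androgens.

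The deposited values are signals taken here as log2, and the median of all probe set means was 8.17. Array medians ran from 8.10 to 8.27. The difference between the 2 arrays of a stage had an SD across probe sets of 0.161 at M19 E13.5, 0.212 at M19 E15.5 and 0.254 at M19 E17.5. In 129 it was 0.380 at E13.5, 0.292 at E15.5 and 0.229 at E17.5. The first 129 array of E13.5 was unlike the rest in its high 18S rRNA signal, and it enters the M19 results only through the shared estimate of the spread. Markers of the labelled tissue were present in M19: the germ cell gene Dazl stood between 11.57 and 12.45 on the 6 arrays, the Sertoli cell hormone gene Amh between 9.89 and 12.62, and the Leydig cell enzyme gene Cyp17a1 between 11.56 and 13.98. Xist, the RNA of the inactive X chromosome of female cells, stood between 7.94 and 8.25, near the median of all probe sets.

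The E15.5 contrast is the mean of the E15.5 arrays minus the mean of the E13.5 and E17.5 group means. A gene was called when the limma test of this contrast had a Benjamini-Hochberg adjusted p under 0.05 over all 45037 probe sets, and it was read from its brightest probe set. A called gene is a peak when both E15.5 arrays lay above all 4 other M19 arrays, and a dip when both lay below them. Of 18032 genes, 514 were called higher at E15.5 (2.85%) and 117 lower (0.649%). The peaks numbered 429 (2.38%) and the dips 76 (0.421%). A stricter form asks that the rise and the fall each pass their own test, and it held for 140 peaks (0.776%) and 16 dips (0.0887%). A gene named below as a peak or dip meets the first form and not always the stricter one. Counted over probe sets, 1104 of 45037 were called in either direction (2.45%).

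The calls therefore leaned towards peaks, and most peaks were not symmetrical. The first step, from E13.5 to E15.5, was the larger in 304 of the 429 peaks (70.9%). In 276 of them (64.3%) both E17.5 arrays still lay above both E13.5 arrays, and in 96 they lay below. The median first step of the peaks was 0.83 log2 units and the median second step was -0.58. Of the 514 genes called higher, 51 were no peaks because the E17.5 mean was at or above the E15.5 mean, and 8 because the E13.5 mean was. Another 26 had the highest mean at E15.5 but overlapping arrays. The dips had the same form with the sign turned: the first step was the larger in 53 of 76 (69.7%). In 51 of the 76 (67.1%) both E17.5 arrays remained below both E13.5 arrays.

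**Figure D1:**
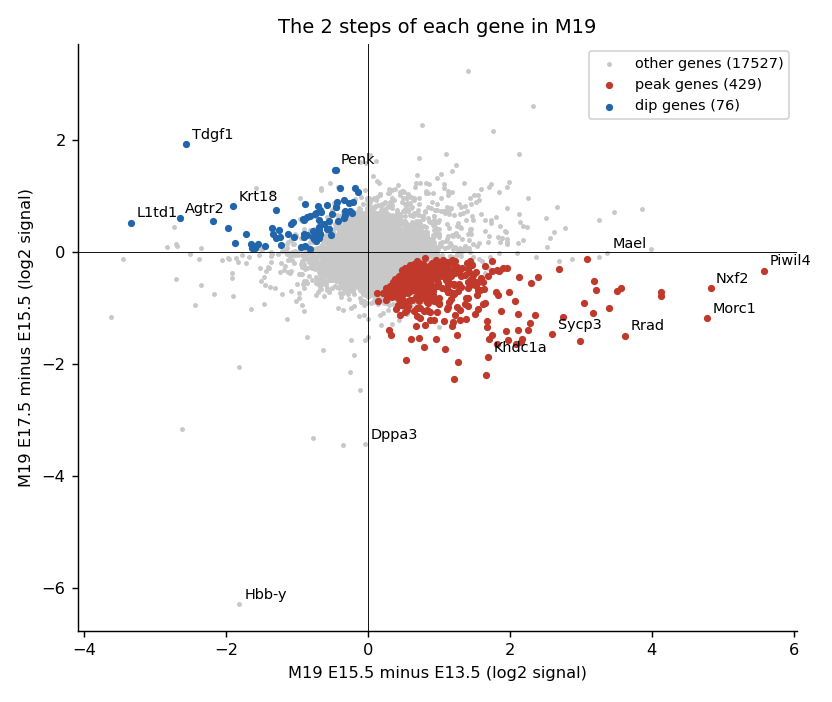
Each point is 1 of 18032 genes, with the M19 change from E13.5 to E15.5 on the x axis and from E15.5 to E17.5 on the y axis, both in log2 signal. Peaks (red, 429) lie to the lower right and dips (blue, 76) to the upper left; Mael (no peak) lies near 0 on the y axis, while Dppa3 and Hbb-y fall only or mainly in the second step.

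These counts depended on single arrays. The fit without replicate 1 of M19 at E15.5 called 96 genes higher, 28 lower and 203 probe sets, and that without its replicate 2 called 220, 31 and 401. Without an M19 E13.5 array the genes called higher were 244 and 256, those called lower 54 and 57, and the probe sets 488 and 529. Without replicate 1 of M19 at E17.5 the genes called higher were 290 and the probe sets 624, and without its replicate 2 the genes called lower were 70. Leaving out replicate 1 of M19 at E15.5 left 83 peaks and 21 dips, and leaving out its replicate 2 left 188 and 23. The fits without an M19 E13.5 array gave 197 and 35 (replicate 1) or 211 and 41 (replicate 2), and those lacking an M19 E17.5 array 241 and 58 or 349 and 51. Peaks with both steps called fell from 140 to 22 and 55 without an E15.5 array, to 57 and 63 without an E13.5 array and to 44 and 66 without an E17.5 array of M19. Dips with both steps called fell from 16 to between 1 and 4 in those 6 fits. Without either 129 E13.5 array, peaks with both steps called rose to 216 and such dips to 28. In what follows, a call is said to hold when it stayed past the threshold in each of the 12 fits that leave out 1 array, which was so for 51 of the 104 genes named by rule.

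The piRNA pathway had more genes called higher than any other list described here. Of its 16 measured genes, 13 were called higher at E15.5 and 8 of them were peaks, against 2.85% and 2.38% of all genes. The lists here were chosen with earlier results of these data known, so such shares are descriptions and not tests. The median contrast of the list was 1.27, and that of all genes was -0.01. The list had 9 genes called higher and 4 peaks without replicate 1 of M19 at E15.5. The 3 members not called, Piwil1, Pld6 and Henmt1, had contrasts between 0.40 and 0.56.

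Morc1, an ATPase that represses transposons in male germ cells, had the largest contrast of all genes when each is read from its brightest probe set. Its signal was 6.75 and 6.80 at E13.5, 11.60 and 11.52 at E15.5, and 10.26 and 10.49 at E17.5. It thus rose by 4.78 log2 units in the first step and gave back 1.18 in the second, and no array of 1 stage overlapped those of another. The contrast was 2.98 ± 0.14 (SE, 2 arrays per stage; adjusted p = 4.1e-06), and the call held. Piwil4, the PIWI protein that acts in the nucleus, went from 5.57 and 5.66 to 11.25 and 11.14 and stood at 10.69 and 11.05 at E17.5. Its E15.5 arrays were the highest by a small margin only: the contrast was 2.95 ± 0.24 (adjusted p = 0.00011), while the second step of -0.33 had an adjusted p of 0.6.

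Asz1 and Tdrd5 fell back further. Asz1, a protein of the mitochondrial surface needed to make piRNAs, measured 8.81 and 8.89, then 11.11 and 10.94, then 9.27 and 9.69. The contrast was 1.86 ± 0.15 (adjusted p = 9.7e-05). Tdrd5, a Tudor domain protein of germ granules, measured 8.63 and 8.74, then 10.71 and 10.55, then 9.24 and 9.22, a contrast of 1.67 ± 0.12 (adjusted p = 5.3e-05). For both genes each step was called, and this was so in all 12 fits without an array. For the other peaks of the list, Gtsf1, Tdrd1, Mov10l1 and Tdrd12, the brightest probe sets had contrasts between 0.74 and 0.88. In these probe sets the second step was called for Tdrd12. It was not called for Gtsf1 (-0.40), Tdrd1 (-0.32) and Mov10l1 (-0.31). Gtsf1 and Mov10l1 each missed the threshold in 2 of the 12 fits, Tdrd1 in 5 and Tdrd12 in 1, with adjusted p-values up to 0.28. The probe sets of Gtsf1 disagreed in size: its other one was also a called peak, with a mean signal of 9.99 and a contrast of 3.13 ± 0.14, above the 2.98 of Morc1.

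The remaining called members rose at E15.5 and then stayed. Mael, of the germ granule, stood at 9.46 and 9.45, 12.83 and 12.80, and 12.73 and 12.87. Tex15, Piwil2, Tdrd9 and Dnmt3l had the same form, with first steps between 2.77 and 3.46. Dnmt3l is the cofactor that brings methyltransferases to germline DNA. Its signal was 7.54 and 7.55, then 10.38 and 10.25, then 10.75 and 10.75, so the E17.5 arrays were the highest. Their contrasts of 1.17 to 1.69 all passed the test, so the contrast alone does not tell a peak from a rise to a plateau. Among these genes, Tdrd9 rose again in the second step, by 0.73 (adjusted p = 0.013).

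**Figure D2:**
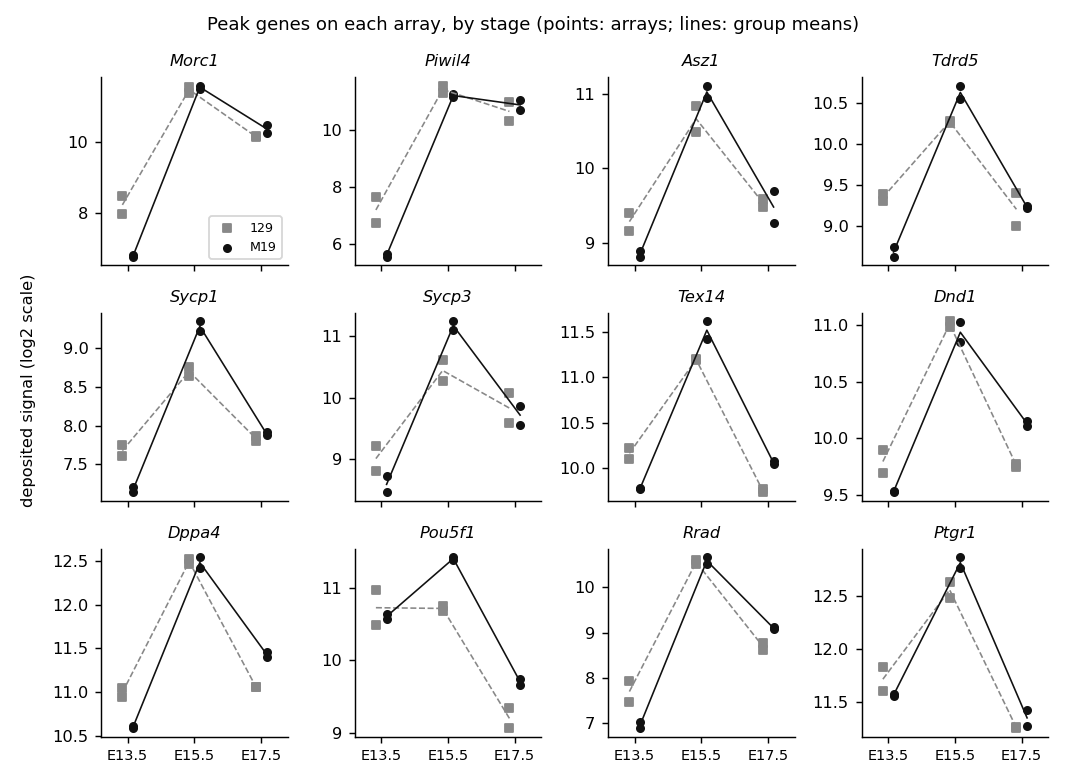
Deposited signal (y axis, log2 scale) of 12 peak genes on each array at E13.5, E15.5 and E17.5 (x axis), M19 as black circles and 129 as grey squares, with lines through the group means. Every gene has both M19 E15.5 points above the other 4 M19 points, and Piwil4 falls least in the second step, by 0.33.

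Structural genes of the synaptonemal complex, which joins paired chromosomes in meiosis, also peaked, although fetal male germ cells are not known to enter meiosis. Of 22 measured meiosis genes, 8 were called higher and 5 were peaks, against 2.85% and 2.38% of all genes, with a median contrast of 0.42. Only 4 were called without replicate 1 of M19 at E15.5. Sycp3, of the lateral element, had 8.45 and 8.71, then 11.25 and 11.11, then 9.56 and 9.87. Its contrast was 2.03 ± 0.18 (adjusted p = 0.00017). Sycp1, of the transverse filaments, had 7.14 and 7.21, then 9.35 and 9.22, then 7.88 and 7.92, a contrast of 1.75 ± 0.10 (adjusted p = 1.2e-05). Neither gene had overlapping stages, and both calls held.

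Sycp2, a lateral element partner of Sycp3, had a contrast of 1.73 ± 0.16, and the X-linked recombination gene Tex11 one of 1.26 ± 0.12. Both steps were called in each, and both contrasts held. Syce1, of the central element, had a contrast of 0.79 ± 0.11, and its call was lost without replicate 1 of M19 at E15.5 (adjusted p = 0.12). The central element gene 4930447C04Rik lies outside the list and peaked as well, at 8.25 and 8.29, 10.67 and 10.39, and 8.94 and 9.33. Stag3, Syce3 and Spo11 were called with contrasts of 0.43 to 0.68 but were no peaks, because the E17.5 arrays reached the level of E15.5. They missed the threshold in 5, 1 and 10 of the 12 fits without an array. Among the members not called, the contrast was 0.41 for Stra8 (adjusted p = 0.24), 0.40 for Rec8 (adjusted p = 0.13) and near 0 for Dmc1.

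The promoters of 4 of these genes are shown because each gene had both steps called in opposite directions and carries at least 1 of 2 short motifs. Each window spans a start listed for the gene in the RefSeq table of build GRCm38.p6, 5′ to 3′ on the strand of the gene, and positions are counted from that start. The listed start is the outer end of the RefSeq gene for Sycp1 and Sycp3 and lies inside the gene for Tdrd5 and Tex14. Capitals mark CACGTG, an E-box bound by Myc and Max and their repressive partners, and GCGGGA, a core of the sites of E2F factors, in either orientation. Sycp1 lies at chr3:102936051-102936350 on the minus strand, Sycp3 at chr10:88459337-88459636 on the plus strand, Tdrd5 at chr1:156303299-156303598 on the minus strand and Tex14 at chr11:87404815-87405114 on the plus strand.
Sycp1: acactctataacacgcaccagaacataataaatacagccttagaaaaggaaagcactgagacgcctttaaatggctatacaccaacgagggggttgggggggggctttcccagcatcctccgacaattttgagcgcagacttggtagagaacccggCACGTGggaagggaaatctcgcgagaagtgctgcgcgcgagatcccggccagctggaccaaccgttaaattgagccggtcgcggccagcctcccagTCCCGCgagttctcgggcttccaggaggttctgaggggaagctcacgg
Sycp3: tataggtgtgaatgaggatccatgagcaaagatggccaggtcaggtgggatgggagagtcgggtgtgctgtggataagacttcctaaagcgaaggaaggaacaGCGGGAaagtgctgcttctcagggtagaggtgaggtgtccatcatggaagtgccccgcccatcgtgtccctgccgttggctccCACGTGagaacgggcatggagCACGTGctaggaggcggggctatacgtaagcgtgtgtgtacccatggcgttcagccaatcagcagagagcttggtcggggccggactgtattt
Tdrd5: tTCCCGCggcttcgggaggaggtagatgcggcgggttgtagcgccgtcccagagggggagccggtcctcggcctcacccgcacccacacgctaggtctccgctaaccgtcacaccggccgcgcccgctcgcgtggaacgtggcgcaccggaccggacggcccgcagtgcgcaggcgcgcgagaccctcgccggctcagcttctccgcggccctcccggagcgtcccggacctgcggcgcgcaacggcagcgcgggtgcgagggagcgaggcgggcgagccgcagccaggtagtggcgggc
Tex14: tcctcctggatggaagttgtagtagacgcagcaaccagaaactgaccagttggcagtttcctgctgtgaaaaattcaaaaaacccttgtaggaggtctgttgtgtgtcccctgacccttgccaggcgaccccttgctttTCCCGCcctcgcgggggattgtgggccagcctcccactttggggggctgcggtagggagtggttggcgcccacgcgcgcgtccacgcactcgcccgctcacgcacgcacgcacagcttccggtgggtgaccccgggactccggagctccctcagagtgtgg

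The Sycp3 window holds CACGTG at 2 places, with first bases at -64 and -43, and GCGGGA at -147. Sycp1 has CACGTG at -94 and GCGGGA, read on the other strand, at base 3 after the start. Tex14 has GCGGGA on the other strand at -111, and Tdrd5 has it so near the far end of the window. Windows were found for 14368 genes, among them 356 peaks. CACGTG was in 12.4% of the peaks' windows and 9.0% of all windows, and GCGGGA was in 33.1% and 29.8%. In 116 windows of genes with both steps called, from which the 4 shown were taken, the shares were 10.3% and 31.9%. Both strands were searched, and CACGTG and GCGGGA do not overlap each other in the windows shown. Of the 13 motifs counted, some of which contain others, CCTCAG had the widest gap, with 33.1% of the peaks and 27.0% of all. The observed over expected ratio of CpG had a median of 0.77 in the peaks' windows, 0.67 in all windows and 0.58 in those of 56 dips. In the 116 windows of genes with both steps called the median was 0.71. These shares are descriptions of letters and say nothing of binding.

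Genes of germ cell identity were divided. Of 15 measured members 6 were called higher and 5 were peaks, against 2.85% and 2.38% of all genes, while the median contrast was 0.12. This count was 2 without replicate 1 of M19 at E15.5. Ddx4, an RNA helicase that marks germ cells, measured 10.59 and 10.66, then 12.45 and 12.40, then 11.50 and 11.94. Its second step of -0.71 was not called (adjusted p = 0.1). The contrast was 1.26 ± 0.17 (adjusted p = 0.0032), and it was lost without replicate 1 of M19 at E15.5 (adjusted p = 0.077). Dnd1, which protects germ cell RNAs and whose loss gives testicular tumours in 129 mice, measured 9.54 and 9.52, then 11.02 and 10.85, then 10.15 and 10.11. Its contrast of 1.11 ± 0.10 (adjusted p = 0.00022) held.

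The germ cell TFIID subunit gene Taf7l went from 6.41 and 6.48 to 9.95 and 9.73 and then to 8.60 and 9.11. The contrast of Taf7l was 2.19 ± 0.23, and its second step of -0.98 was not called (adjusted p = 0.093). Its ubiquitous relative Taf7 also peaked, by 1.62 ± 0.14, and there both steps were called in all 12 fits without an array. Tex14, of the bridges between germ cells, measured 9.77 and 9.78, then 11.62 and 11.43, then 10.04 and 10.07, with a contrast of 1.61 ± 0.10 (adjusted p = 1.8e-05). Tex101, a germ cell surface protein, and the helicase Ddx25 were peaks of 0.95 and 0.66. They missed the threshold in 1 and 8 of the 12 fits. Their second steps of -0.15 and -0.13 were not called (adjusted p = 0.6 and 0.72), so a fall after E15.5 was not shown. The translation factor Cpeb1 was called (0.76 ± 0.15) through its fall after E15.5 and was no peak, and it missed the threshold in 5 fits.

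The other 9 members were not called. Dazl had 12.28 and 12.30, then 12.45 and 12.40, then 11.57 and 11.90, a contrast of 0.41 (adjusted p = 0.13). The receptor Kit had a contrast of -0.68 (adjusted p = 0.11). The summed signal of the list, on the log2 scale, was 13.83 and 13.82 at E13.5, 14.46 and 14.39 at E15.5, and 13.83 and 14.10 at E17.5. It was highest on the E15.5 arrays, but it includes the 6 called members above and is no separate measure of them. The arrays measure whole gonads, so more or fewer germ cells and more or less RNA per germ cell cannot be told apart, and the part of this sum in the peaks was not tested.

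The called pluripotency genes took 3 courses. Of 19 measured members, 9 were called higher and 2 lower, against 2.85% and 0.649% of all genes, and the peaks were Pou5f1, Dppa4, Lin28a, Trim71, Sall4 and Tfcp2l1. Pou5f1, the core transcription factor, measured 10.57 and 10.64, then 11.42 and 11.38, then 9.75 and 9.67. It rose by 0.79 and then fell by 1.69, to below its E13.5 level, and the contrast of 1.24 ± 0.14 (adjusted p = 0.00078) held. Dppa4, a chromatin factor, measured 10.62 and 10.59, then 12.54 and 12.42, then 11.40 and 11.46, a contrast of 1.46 ± 0.09 (adjusted p = 2.2e-05). Lin28a, which blocks let-7 microRNAs, had 8.96 and 8.99, 10.11 and 10.26, and 7.37 and 8.45; its E17.5 arrays lay 1.08 apart. The contrast of 1.74 ± 0.29 (adjusted p = 0.0095) was lost in 2 of 12 fits, with an adjusted p of 0.13 without replicate 1 of M19 at E15.5. Trim71, Sall4 and Tfcp2l1 had contrasts of 1.07, 0.52 and 1.08 and missed the threshold in 5, 5 and 1 fits.

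The second course was a fall wholly or mainly after E15.5. Dppa3, a protein that guards maternal methylation, had 12.27 and 12.34, then 12.35 and 12.19, then 8.77 and 8.91. Its first step was -0.04 (adjusted p = 0.96) and its second -3.43 (adjusted p = 2.3e-07), so its contrast of 1.70 comes from the fall alone. Sox2 went the same way, from 10.61 and 10.64 to 10.34 and 10.19 and then to 6.56 and 7.07. Dppa5a, which binds RNA in pluripotent cells, had steps of -0.77 (adjusted p = 0.002) and then -3.31. The third course was the dip of Tdgf1 and L1td1, described with the dips. Nanog fell through both steps and had a contrast of 0.01. The list had 4 members called higher, 2 of them peaks, and 2 lower without replicate 1 of M19 at E15.5.

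**Figure D3:**
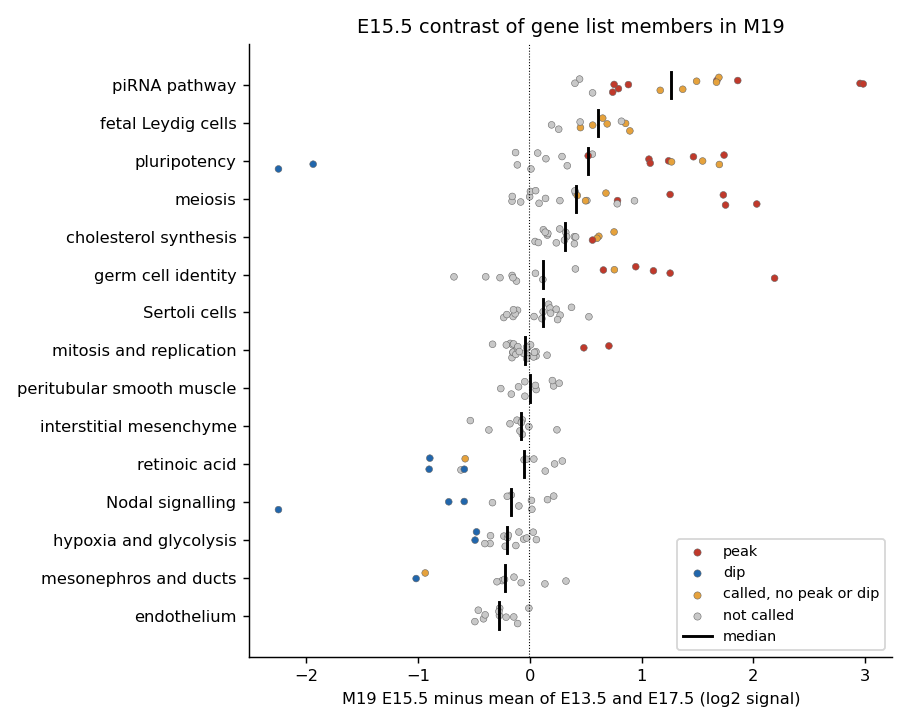
Each point is a gene of a list, placed by its M19 E15.5 contrast in log2 signal (x axis), with the median as a black bar and the median of all genes as a dotted line. The piRNA list has the highest median at 1.27, and the Nodal list holds the dip of Tdgf1 at -2.25.

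Many of the largest peaks belong to no list. Nxf2, an X-linked germ cell factor of RNA export, had 6.75 and 6.82, then 11.74 and 11.49, then 10.95 and 10.99, a contrast of 2.74 ± 0.11. Rrad, a Ras-related GTPase best known from muscle, had 7.03 and 6.89, then 10.66 and 10.50, then 9.08 and 9.11. Its contrast of 2.55 ± 0.13 held, as did both of its steps in all 12 fits without an array. The contrast was 2.45 for the transketolase-like gene Tktl1, 2.42 for Dcaf8l, 2.13 for Cox7b2, a testis subunit of cytochrome oxidase, 2.10 for the spindle gene Shcbp1l and 1.97 for the transcription factor gene Egr4. These 5 calls held, but the second steps of Tktl1, Dcaf8l and Shcbp1l were not called. They were -0.78, -0.71 and -0.68 (adjusted p = 0.051, 0.31 and 0.18). The testis gene Tex13b (2.10) and the ceramide synthase gene Cers3 (1.94) missed the threshold in 2 and 1 fits. Both missed it without replicate 1 of M19 at E15.5. Their second steps of -0.64 and -0.67 were not called (adjusted p = 0.42 and 0.25).

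Other genes were ranked by the smaller of both steps. Khdc1a, of an oocyte family of RNA-binding proteins, had 6.63 and 6.84, then 8.49 and 8.36, then 6.53 and 6.58. Its rise of 1.69 was followed by a fall of 1.87. Nlrp14, of a germline family, rose by 2.09 and fell by 1.64, and Pramel13, of the PRAME family, rose by 2.16 and then fell back in part. Ptgr1, which inactivates prostaglandins and leukotrienes, was bright throughout, with 11.57 and 11.56, then 12.87 and 12.77, then 11.27 and 11.42. Upp1, a uridine phosphorylase, Dock3, an activator of Rac, and Kctd18 also had both steps called, with contrasts of 1.77, 1.45 and 1.25. Nt5el had a contrast of 2.29 but gave back only part of its rise, by a second step of -1.59 after a first of 2.99. Hemgn, a nuclear protein of blood-forming cells, and the X-linked Mageb16 had contrasts of 1.72 and 1.51. Each missed the threshold without replicate 1 of M19 at E15.5, with adjusted p-values of 0.053 and 0.19.

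The chromosome X held 30 of the 429 peaks (7.0%) and 617 of all 18032 genes (3.4%). Chromosome 19, the part of the genome from MOLF, held 11 peaks (2.6%) and 4 of 76 dips (5.3%), against 609 of all genes (3.4%). The contrast compares M19 arrays with each other, so all of its arrays carry the same alleles.

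Of 26 measured genes of mitosis and replication, 2 were peaks, against 2.38% of all genes. The checkpoint kinase gene Bub1 had 10.99 and 11.10, then 11.62 and 11.42, then 10.50 and 10.66, a contrast of 0.71 ± 0.13, and the motor protein gene Cenpe had one of 0.48 ± 0.11. They missed the threshold in 4 and 10 of the 12 fits without an array. Mki67, a marker of dividing cells, had a contrast of -0.17 (adjusted p = 0.62), and the median of the list was -0.04.

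Dips were fewer and smaller. Tdgf1, the Nodal co-receptor also known as Cripto, was the deepest dip. Its signal was 8.55 and 8.46 at E13.5, 6.01 and 5.88 at E15.5, and 7.66 and 8.10 at E17.5. It fell by 2.56 (adjusted p = 0.00081) and then rose by 1.93 (adjusted p = 0.013). The contrast of -2.25 ± 0.28 (adjusted p = 0.0019) held, with an adjusted p of 0.043 without replicate 1 of M19 at E15.5, and both steps were called in 8 of 12 fits.

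Of 11 measured genes of Nodal signalling, 3 were dips, against 0.421% of all genes, and none was called higher. Lefty1, a secreted inhibitor of Nodal, had 10.42 and 10.27, then 9.39 and 9.52, then 9.75 and 9.71, a contrast of -0.59 ± 0.10 (adjusted p = 0.013). Otx2, a transcription factor gene linked to the pathway, had 9.09 and 8.92, then 7.90 and 7.87, then 8.00 and 8.42, a contrast of -0.72 ± 0.14. In both the second step was not called, and they missed the threshold in 4 and 3 fits. Without replicate 1 of M19 at E13.5, or either M19 E15.5 array, Tdgf1 was the only member called, and without replicate 1 of M19 at E17.5 the list had 2. Nodal itself had a contrast of -0.16 (adjusted p = 0.73) and Lefty2 of -0.33 (adjusted p = 0.64). In limma 0 members were called higher, and 0 were higher at an unadjusted p under 0.05.

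L1td1, which binds RNA in embryonic stem cells, had 10.25 and 10.32, then 6.97 and 6.91, then 7.48 and 7.47. Its first step was -3.34, and the later rise of 0.53 was not called (adjusted p = 0.086). The contrast was -1.94 ± 0.12 (adjusted p = 2.2e-05) and held.

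Krt18, a keratin of simple epithelia, had 10.73 and 10.63, then 8.86 and 8.70, then 9.66 and 9.56. Both steps were called, and the contrast of -1.37 ± 0.10 (adjusted p = 7.4e-05) held. Plac8, first found in placenta, had 10.84 and 10.88, then 9.64 and 9.48, then 10.23 and 10.41, a contrast of -1.03 ± 0.14. The tight junction genes Cldn7 and Cldn6 had contrasts of -0.83 and -0.80, and Cdh16, a cadherin of kidney tubules and ducts, of -1.02. The chloride channel gene Ano1 (-0.84) and the transcription factor gene Tbx3 (-0.85) fell by 1.59 and 1.54 and then stood 0.08 and 0.16 higher, steps that were not called. Krt19 had a contrast of -0.54 and missed the threshold in 8 fits, and Cldn6 in 1.

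The gonad lies beside the mesonephros and its ducts, where Cdh16 is expressed. The summed signal of the 9 measured genes of that list was 12.75 and 12.69 at E13.5, 12.06 and 12.05 at E15.5, and 11.87 and 11.87 at E17.5. It fell in both steps. In the second step Krt18, Plac8 and Cldn6 rose by 0.83, 0.76 and 0.54, and these steps were called. The second steps of Cdh16, Ano1, Tbx3, Cldn7 and Krt19 were between 0.08 and 0.40 and were not called. No member of the list stood at 0 on an M19 array, but only 1 of all 18032 genes did. Of the 9 members 2 were called lower, Cdh16 and the transcription factor gene Gata3, and Gata3 was no dip and was lost without replicate 2 of M19 at E15.5 (adjusted p = 0.097). The part of this tissue in the dips was not tested.

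Genes of retinoic acid signalling included 3 dips among 11 measured members, against 0.421% of all genes. Stra6, the receptor that takes up retinol, had 9.23 and 9.37, then 7.96 and 7.95, then 8.44 and 8.34, a contrast of -0.89 ± 0.12 (adjusted p = 0.0022). The receptor gene Rarb fell by 1.64 and had a contrast of -0.90 ± 0.13 (adjusted p = 0.0043). Both calls were lost without replicate 1 of M19 at E15.5, with adjusted p-values of 0.054 and 0.11. Crabp1, a binding protein of retinoic acid, was at the threshold with -0.58 ± 0.13 (adjusted p = 0.049) and missed it in 10 of 12 fits. Cyp26a1, which degrades retinoic acid, was called lower (-0.58 ± 0.11, lost in 5 fits) because it rose at E17.5. The synthetic enzyme gene Aldh1a2 had a contrast of -0.05 and the degrading enzyme gene Cyp26b1 of 0.29. Without replicate 1 of M19 at E15.5 no member of this list was called, and 2 were called without its replicate 2, without either M19 E13.5 array or without replicate 2 of M19 at E17.5.

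**Figure D4:**
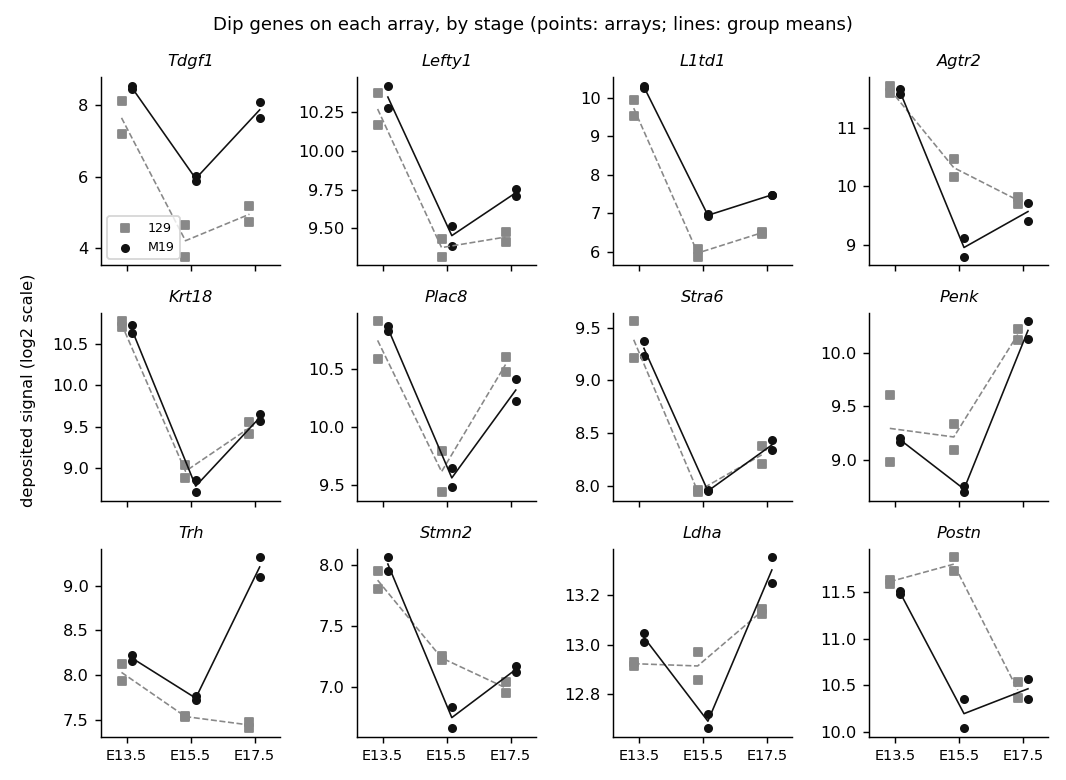
Deposited signal (y axis, log2 scale) of 12 dip genes on each array at E13.5, E15.5 and E17.5 (x axis), M19 as black circles and 129 as grey squares, with lines through the group means. Both M19 E15.5 points lie below the other 4 M19 points in every panel, and Tdgf1 returns most. The 129 means of Postn, Agtr2, Trh and Stmn2 are lowest at E17.5 and do not dip.

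The remaining dips named by rule have varied roles. Agtr2, the angiotensin type 2 receptor, had 11.56 and 11.66, then 9.11 and 8.80, then 9.42 and 9.72, a contrast of -1.63 ± 0.14 (adjusted p = 0.00013) that held. Penk and Trh, precursors of neuropeptides, stood lowest at E15.5 and then rose: Trh had 8.16 and 8.23, then 7.77 and 7.72, then 9.32 and 9.10. The first steps of Penk and Trh, -0.46 and -0.45, were not called (adjusted p = 0.22 and 0.054). Their contrasts come mainly from second steps of 1.48 and 1.47, which were called. The Trh contrast of -0.96 ± 0.10 held, while that of Penk, -0.97 ± 0.16, was lost in 2 fits. Stmn2, a tubulin-binding protein of neurons, fell by 1.25 and had a contrast of -0.82 ± 0.10. Postn, a matrix protein of connective tissue, had a contrast of -0.78 ± 0.12 and was lost without replicate 2 of M19 at E15.5 (adjusted p = 0.096).

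The glycolytic genes Ldha and Pgk1 dipped by smaller amounts. Ldha had 13.05 and 13.01, then 12.72 and 12.66, then 13.25 and 13.35, a contrast of -0.48 ± 0.09 (adjusted p = 0.02), and Pgk1 had one of -0.49 ± 0.11 (adjusted p = 0.036). They missed the threshold in 5 and 10 of 12 fits, and no other of the 15 measured hypoxia and glycolysis genes was called. The list's median contrast was -0.20.

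Genes of steroid synthesis were called without peaking. Of 10 measured fetal Leydig cell genes, 6 were called higher, against 2.85% of all genes, and all 6 had made most of their rise by E15.5. Cyp11a1, which makes the first steroid from cholesterol, had 10.46 and 10.68, then 12.82 and 12.79, then 13.28 and 13.22. Cyp17a1, Star, Hsd3b1, Scarb1 and Cyp11b1 were the others, with contrasts of 0.45 to 0.86. None of the 6 was called without replicate 1 of M19 at E15.5, and 3 were called without its replicate 2 or without replicate 2 of M19 at E13.5. Of 18 cholesterol synthesis genes 4 were called higher (2.85% of all genes), and Insig1, a sterol sensor, was the 1 peak, at 0.56 ± 0.12 (adjusted p = 0.041, lost in 6 fits). Without either replicate 1 of M19 at E13.5 or replicate 1 of M19 at E15.5 none of these 4 was called, and 2 were called without replicate 2 of M19 at E13.5, replicate 2 of M19 at E15.5 or replicate 1 of M19 at E17.5.

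The summed signal of 9 red blood cell genes was 15.36 and 15.36, then 13.63 and 13.51, then 11.93 and 11.96. The embryonic globin gene Hbb-y was called higher (2.23 ± 0.11) because its second fall of 6.28 far exceeded its first of 1.82. Hbb-bh1 was called lower (-1.23 ± 0.15) by the reverse. The probe sets of Hbb-y disagreed in size: another bright one had a contrast of 2.28, and a further bright one had 0.36 and was not called. The band 3 gene Slc4a1 was a peak, with 8.96 and 9.06, then 9.85 and 9.61, then 8.04 and 8.35, a contrast of 1.13 ± 0.15 that was lost without replicate 1 of M19 at E15.5 (adjusted p = 0.092). The sum holds embryonic globin genes, and the part of blood in other genes was not tested.

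Several lists had no call in this contrast. Over all 18032 genes, 1848 were higher and 685 lower at an unadjusted p under 0.05. In limma 0 of 17 Sertoli cell genes were called, with 3 higher and 0 lower at an unadjusted p under 0.05, and their median contrast was 0.12. Likewise 0 of 10 peritubular muscle genes were called (1 higher and 1 lower at that unadjusted p), 0 of 10 of the interstitial mesenchyme (2 lower), 0 of 11 of the endothelium (5 lower) and 0 of 12 of macrophages (4 lower). None of 12 Notch genes (1 higher, 1 lower), 7 hedgehog genes (0), 18 immediate early genes (2 lower), 10 cell cycle inhibitors (2 higher, 1 lower), 13 interferon response genes (1 higher, 1 lower), 17 splicing factors (0), 18 genes of oxidative phosphorylation (1 higher), 9 adrenal and chromaffin cell genes (1 higher) or 4 sex-linked genes (1 higher) was called. In the other lists the heat shock gene Hspa1b (0.66), the liver gene Afp (1.55) and the epidermal keratin gene Krt17 (0.55) were called higher. They missed the threshold in 5, 1 and 5 of the 12 fits.

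Probe sets other than the brightest gave a check of the named genes. There were 50 of them for 30 genes, 47 had the same direction as the brightest, 27 were called in it and 0 were called in the opposite direction. Of the 28 that lay above the median brightness, 28 had the same direction and 21 were called. Sizes could differ: another bright probe set of Kctd18 had a contrast of 0.17 and was not called, and that of Tex13b had 0.60 in place of 2.10.

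In 129 the same contrast called 342 genes higher (1.9%) and 76 lower (0.421%). The 129 values do not enter the M19 contrast itself. The 129 arrays do enter the shared estimate of the spread by which M19 genes were called, so the calls of the 2 strains are not independent. Of the 429 M19 peaks, 421 were higher at E15.5 in 129 too (98.1%), 160 of them passed the test there, and 0 were called in the opposite direction. In 311 both 129 E15.5 arrays lay above the other 4. Of the 76 dips, 65 went the same way in 129, 28 passed the test, and 6 were called in the opposite direction. For comparison, 65.4% of all genes had the same sign in both strains. Leaving out replicate 1 or 2 of 129 at E15.5 lowered the 342 to 218 or 113, and leaving out replicate 1 of 129 at E17.5 lowered it to 212. The count of 76 fell to 19 and 47, and to 37 and 38 without an E17.5 array and 45 without either M19 E13.5 array; it rose to 118 and 117 without a 129 E13.5 array.

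**Figure D5:**
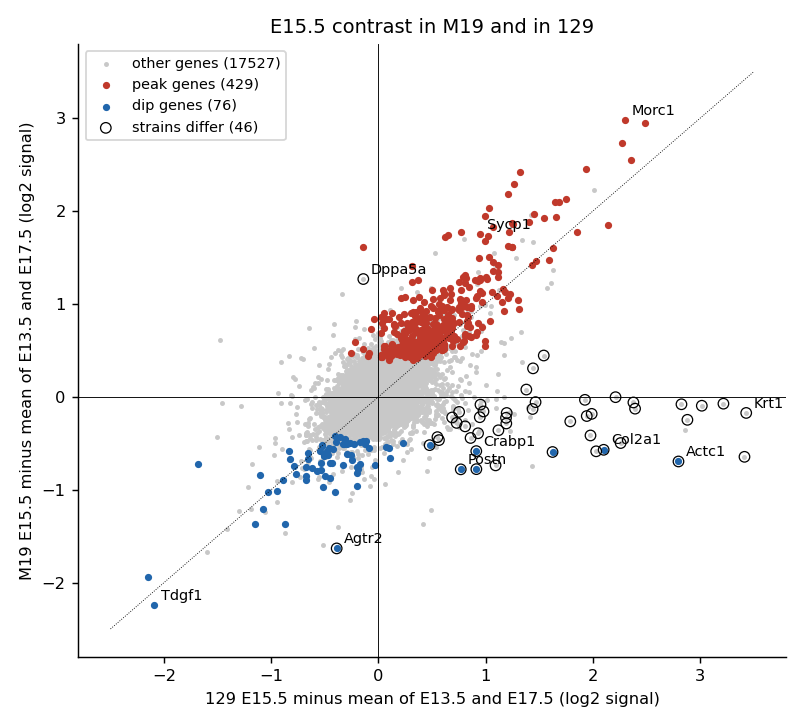
Each point is 1 of 18032 genes, with the E15.5 contrast of 129 on the x axis and that of M19 on the y axis, in log2 signal; the dotted line marks equal values. Of the 429 peaks, 421 lie to the right of 0, and the 46 circled genes, whose contrast differs between the strains, include 8 dips and Dppa5a but no peak.

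Morc1 measured 7.98 and 8.47, then 11.40 and 11.57, then 10.14 and 10.17 in 129, a contrast of 2.30 ± 0.14. Sycp1 had a 129 contrast of 0.95 ± 0.10 and a difference between strains that missed the threshold (adjusted p = 0.053). The median contrast of the 429 peaks was 0.69 in M19 and 0.46 in 129. Since the genes were chosen for large values in M19, a smaller value in 129 follows in part from the choice and is no sign of a difference. The difference itself was tested by limma as an interaction. It was called for 0 of 429 peaks and for 8 of 76 dips, although 130 peaks and 29 dips had an unadjusted p under 0.05. The 130 and 29 are no measure of a difference, since these genes were chosen by the M19 contrast, which is part of it. The share of all genes under that unadjusted p is not given here.

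Over all genes the interaction called 1 gene with the higher contrast in M19 (0.00555%) and 45 with the lower (0.25%). The 1 gene was Dppa5a, whose signal fell from 12.67 and 12.70 to 10.43 and 10.44 and then to 8.46 and 8.49 in 129, an even decline. In M19 it went from 12.82 and 12.83 to 12.17 and 11.93 at E15.5 and then to 8.78 and 8.71, and the difference of contrasts was 1.41 (adjusted p = 0.0013). The 8 dips were Agtr2, Postn, Crabp1, Actc1, Myh8, Col2a1, Ccn3 and Twist2; the last 2 are named after their values were seen. Actc1, the cardiac actin gene, had 7.92 and 7.89, then 7.28 and 7.21, then 7.94 and 8.00 in M19. In 129 it had 7.78 and 8.09, then 10.63 and 10.80, then 7.94 and 7.86, so the strains moved in opposite directions at E15.5. The count of 45 fell to 24 or 22 on leaving out replicate 1 or 2 of M19 at E15.5, to 26 without replicate 1 of M19 at E13.5, to 25 without replicate 2 of 129 at E15.5 and to 26 without replicate 2 of 129 at E17.5. The count of 1 rose to 9 or 3 on leaving out replicate 1 or 2 of 129 at E13.5 and to 2 without an M19 E17.5 array.

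Of the 45 genes, 7 belong to the list of epidermal genes, 7 to that of skeletal muscle and 3 to that of cartilage and tendon, and these markers moved in 129. The summed signal of 15 skeletal muscle genes in 129 was 12.02 and 11.87 at E13.5, 13.05 and 13.01 at E15.5, and 12.01 and 12.04 at E17.5. In M19 it lay between 11.75 and 12.10 on all 6 arrays. For 13 epidermal genes it was 14.21 and 14.30 on the 129 E15.5 arrays and between 12.53 and 12.88 in M19, and for 11 cartilage and tendon genes 12.93 and 13.07 against 11.98 to 12.24 in M19. On the M19 E15.5 arrays themselves the epidermal, muscle and cartilage sums were 12.66 and 12.53, 11.76 and 11.75, and 11.98 and 12.02. The muscle and cartilage sums were the lowest of the 3 M19 stages there, and the part of such tissue in the dips of Actc1, Myh8, Col2a1, Crabp1 and Postn was not tested. No member of the 3 lists stood at 0 on an M19 array, but only 1 of all 18032 genes did. The labels do not say what was dissected with the gonads.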

How the data were processed

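Pooled total RNA was measured on 12 Affymetrix mouse 430_2 arrays, per the series' design text, as 2 arrays for each of 3 stages in each of 2 strains. The log2 signals were used as deposited; how the authors made them (summary method, background correction, normalization, log base) is not stated in the sources used here, and log2 was read from the range of the values. All columns were tied to a sample (0 columns of no sample). Tests covered 45037 probe sets, without 64 controls. Of these, 34945 have 1 gene symbol in the platform annotation, 932 several and 9160 none, and 34741 matched RefSeq.

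Group means of all 12 arrays were fitted with limma 3.58.1 in R 4.3.3 (lmFit, eBayes, 6 residual degrees of freedom), and contrasts were tested two-sided with Benjamini-Hochberg adjustment over all probe sets. Python 3.11.15 with pandas 2.3.3 and matplotlib 3.10.9 made the counts and plots. A gene's value is that of its brightest probe set. Named genes are up to 15 peaks and 15 dips with the largest contrast and with the higher side above the median of probe set means, 20 with both steps called and the largest smaller step, and list members called as peaks or dips; other list members are given as values where they answer a comparison. The members and lists were chosen with earlier results of these data known. Promoter windows are RefSeq's, on GRCm38.p6.

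The fit was tested on simulated data: of 200 changed probe sets among 45037, 139 calls were made, 8 of them false, and the share recovered was 23.9% at 0.5 log2 units, 73.1% at 1 and 100% at 2. With 2 arrays a group, the number of arrays limits the precision. Alternatives changed the normalization, the filter on dim probe sets, the arrays in the fit, the variance model, the replicate block, the size of change and the probe sets per gene, and left out each array in turn. Same-numbered arrays deviated together with correlations between -0.37 and 0.54, so the numbers were not taken as pairs. Among 129 at E13.5, 129 at E15.5 and M19 at E17.5 the correlations were 0.51 to 0.54. Arrays thus shared part of their deviations, and calls of genes that move together are not independent.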

Additional observations from a re-analysis of the deposited data

Results flagged for a closer look

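The E15.5 contrast of 7 named genes differed between the strains by limma's interaction test. It was lower in M19 by -3.50 for Actc1 (adjusted p = 4.6e-06), -2.67 for Col2a1 (adjusted p = 4.2e-05), -1.69 for Myh8 (adjusted p = 0.0011) and -1.55 for Postn (adjusted p = 0.0026), and higher by 1.41 for Dppa5a (adjusted p = 0.0013). These 5 stayed past the threshold in all 12 fits without an array. The difference was -1.50 for Crabp1 (adjusted p = 0.0085), which was lost without either M19 E15.5 array (adjusted p up to 0.1). It was -1.24 for Agtr2 (adjusted p = 0.031), which was lost in 8 of the 12 fits (adjusted p of 0.23 without replicate 2 of M19 at E15.5).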

How the results depend on the processing

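None of the contrasts of the 104 named genes changed sign under an alternative that measured the gene. Leaving out 1 array gave 83 to 564 peaks, 21 to 105 dips, 22 to 216 peaks and 1 to 28 dips with both steps called, 96 to 682 genes called higher, 28 to 166 lower, 203 to 1522 probe sets, 113 to 450 genes higher and 19 to 118 lower in 129, and 1 to 9 genes with a higher and 22 to 55 with a lower contrast in M19. Fitting the 6 M19 arrays alone gave 209 genes called lower, 129 dips, 247 peaks and 34 dips with both steps called, and 1748 probe sets. The mean of all probe sets of a gene gave 203 genes called lower, 132 dips, 35 dips with both steps called, 152 genes lower in 129, and 12 and 73 genes with a higher and a lower contrast in M19. Asking for a contrast of at least 1 left 112 and 18 genes called higher and lower, 94 peaks and 9 dips, 60 and 3 with both steps called, 107 and 17 in 129, and 222 probe sets. Quantile normalization gave 25 dips with both steps called and 5 genes with a higher contrast in M19. That last count was 10 with an intensity trend, 9 with a robust trend, 8 with the filter on group means and 2 with the filter on the overall mean, which also gave 18 lower. With the replicate block it was 3, and the block gave 409 peaks and 73 dips; Spo11, Crabp1, Insig1, Krt19 and Cenpe then missed the threshold. The causes of these shifts were not tested. In simulated data 73.1% of changes of 1 log2 unit were recovered and 23.9% of those of 0.5.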
